A study of Macaca mulatta with 28 samples.

Results

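Receptors for neuropeptides and feeding hormones were followed in RNA from the ventral tegmental area (VTA), from which dopamine neurons of the midbrain send their axons to the nucleus accumbens. The set holds 10 genes, taken by name from the 16885 transcripts with a gene symbol in the table: NTSR1 and NTSR2 (neurotensin), TACR1 and TACR3 (tachykinins), HCRTR1 and HCRTR2 (orexins), GHSR (ghrelin), NPY1R (neuropeptide Y), CCKBR (cholecystokinin) and LEPR (leptin). All 10 were in the table, and all 10 passed the filter of at least 5 counts in at least 3 animals that left 13769 transcripts. RNA had been sequenced from 28 male rhesus macaques with 1 library per animal, so every animal is 1 biological replicate. The 17 drinkers had self-administered 4% ethanol in sessions of 22 h for 12 months, then went through 1-month abstinences separated by 3 months of renewed access, and tissue was taken at 30 days of abstinence. They were sorted by their intake into 1 low, 2 binge, 5 heavy and 9 very heavy drinkers. The 11 controls drank no ethanol and were either yoked to a drinker for calories or kept as housing controls, which the labels do not separate. Of the drinkers 8 belonged to cohort 1 and 9 to cohort 2, and of the controls 8 and 3. Cohort 1 held 4 of 5 heavy drinkers and cohort 2 held 6 of 9 very heavy drinkers, so category and cohort overlap.

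Most of these receptors are G protein coupled and are carried by neurons. Neurotensin acts on dopamine neurons mainly through NTSR1, a receptor that couples to Gq, phospholipase C and calcium release and raises their firing, while NTSR2 is a lower-affinity receptor found on astrocytes as well as neurons. TACR1 and TACR3 are the preferred receptors of substance P and neurokinin B. The orexin receptors HCRTR1 and HCRTR2 answer to peptides made in the lateral hypothalamus that support arousal and feeding. GHSR, NPY1R and the leptin receptor LEPR carry hunger and energy-store signals to the brain, ghrelin and neuropeptide Y favoring feeding and leptin opposing it. CCKBR is the main cholecystokinin receptor of the brain. In the VTA, where several of these peptides change the firing of dopamine neurons, the amount of tyrosine hydroxylase (TH), the enzyme that limits dopamine synthesis, is a common measure of the dopamine neuron content of a sample.

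Values are estimated counts of the single Ensembl transcript listed for each gene, divided by the library size as scaled by the trimmed mean of M-values (TMM) and multiplied by the mean library size, and are called normalised counts here. They are not adjusted for transcript length, so levels are compared between animals and never between genes. Libraries held 12303914 to 27338669 counts with a median of 22020291, of which mitochondrial transcripts took 36.4% to 60.6%. TH varied widely between animals, with normalised counts from 126 to 17854 with a median of 2479 in controls and from 121 to 15397 with a median of 1677 in drinkers. The groups overlapped over nearly their whole range. In bulk tissue, fewer cells of a type and less RNA per cell cannot be told apart.

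The loci of the 2 neurotensin receptors and of TH are shown first because 1 of the receptors followed TH across animals and the other did not. NTSR1 lies on chromosome 10 of Mmul_10 from 97867359 to 97922556 on the plus strand, NTSR2 on chromosome 13 from 97116050 to 97133990 on the plus strand, and TH on chromosome 14 from 2224320 to 2232217 on the minus strand. The 250 bases just upstream of the first annotated base of each gene in RefSeq are given 5′ to 3′ on the gene's own strand, chr10:97867109-97867358 for NTSR1, chr13:97115800-97116049 for NTSR2 and chr14:2232218-2232467 for TH, with each CG dinucleotide in capitals.
NTSR1: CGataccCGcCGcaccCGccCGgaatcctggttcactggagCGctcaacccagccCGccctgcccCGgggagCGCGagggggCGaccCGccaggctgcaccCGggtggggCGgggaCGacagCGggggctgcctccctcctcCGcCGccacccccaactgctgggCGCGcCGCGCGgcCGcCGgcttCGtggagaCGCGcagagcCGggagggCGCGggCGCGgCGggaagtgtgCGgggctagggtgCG
NTSR2: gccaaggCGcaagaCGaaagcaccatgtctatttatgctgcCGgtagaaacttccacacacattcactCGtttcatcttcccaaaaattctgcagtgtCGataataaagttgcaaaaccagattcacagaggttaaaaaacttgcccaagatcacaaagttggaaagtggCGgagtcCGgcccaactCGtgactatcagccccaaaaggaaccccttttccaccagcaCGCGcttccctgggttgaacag
TH: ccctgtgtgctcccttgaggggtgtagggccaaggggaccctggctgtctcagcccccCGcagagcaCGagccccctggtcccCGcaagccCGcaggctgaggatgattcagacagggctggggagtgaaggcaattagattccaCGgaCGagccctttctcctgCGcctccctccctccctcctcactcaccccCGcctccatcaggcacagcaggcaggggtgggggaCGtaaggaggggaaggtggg
The NTSR1 window held 36 CG dinucleotides and 79.2% G and C, and 95.7% of 20782 promoter windows of the same length had at most as many CG. The NTSR2 window held 10 CG and 48.0% G and C, and the TH window 9 CG and 66.8%, against a median G and C content of 57.2% over all windows. The windows of all 10 receptors were searched on both strands for AAAGGTCA (the response element of NR4A2), TAATCC (bound by PITX3) and TGTTTAC (bound by FOXA factors), 3 motifs of regulators of dopamine neuron genes. None of the 10 held any of them, nor did the TH window, while 0.938%, 9.29% and 2.56% of all windows did. The TATA box letters TATAAA were present upstream of TACR1, TACR3 and HCRTR2, and in 9.85% of all windows. These matches describe letters only and say nothing of whether a factor binds.

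NTSR1, the neurotensin receptor of dopamine neurons, differed 37.3-fold between the lowest and the highest animal, and its level followed TH. In controls its normalised counts ran from 25.8 to 962 with a median of 93.2 (mean 300 ± 322, SD, n = 11), and in drinkers from 35.3 to 600 with a median of 134 (178 ± 168, SD, n = 17). Controls 5 and 3, at 962 and 616, lay above all drinkers, and the remaining animals of both groups shared nearly the same range. By category, heavy drinkers ran from 49.1 to 600 with a median of 51.9 (n = 5) and very heavy drinkers from 35.3 to 503 with a median of 134 (n = 9). The 2 binge drinkers had 55.6 and 198.7, and the low drinker had 166. The medians rank heavy, controls, binge, very heavy and low, and no neighboring pair in that order was separated by more than its spread. The 5 heavy drinkers were split in an uneven way, with 4 between 49.1 and 151 and heavy drinker 2 at 600.

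The animals with the most NTSR1 were those with the most TH. The 9 animals with more than 5000 normalised counts of TH, 5 controls and 4 drinkers, had 258 to 962 of NTSR1, and the other 19 animals had 25.8 to 199. Pearson's r between the variance-stabilized values of NTSR1 and TH was 0.95 over 28 animals (Spearman's rho 0.89, two-sided permutation test, p = 1e-05 for each, the smallest value that 100000 permutations can give). It was 0.97 in 11 controls (rho 0.95) and 0.91 in 17 drinkers (rho 0.82), with a permutation p of 1e-05 for both values of r. TH formed no separate clusters in any of these sets. Within cohorts r was 0.97 in the 16 animals of cohort 1 and 0.89 in the 12 of cohort 2 (permutation p = 1e-05 and 0.00014). After the 2 animals farthest from the median TH were left out, r was 0.94 over all animals, 0.97 in controls, 0.84 in drinkers and 0.76 in cohort 2 (permutation p = 0.013 in cohort 2). Over all 28 animals only 4 of the other 13767 transcripts had a higher r with TH than NTSR1. In cohort 2 the animal farthest from the others was very heavy drinker 5, with 134 normalised counts of NTSR1 at 222 of TH. It was left out because it lay farthest from the relation, so the r of 0.97 over the 11 animals left there is a description with no test.

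In a model of all transcripts with drinking and cohort as further terms (edgeR's quasi-likelihood test, Benjamini-Hochberg adjustment over 13768 transcripts), NTSR1 rose by 0.57 on the log2 scale for each doubling of TH (SE 0.060, adjusted p = 8.34e-07). It was the only receptor of the 10 with an adjusted p under the threshold of 0.05, beside 82 of all transcripts, which is 0.596%, of which 60 rose with TH and 22 fell. The slope was 0.62 in cohort 1 alone (adjusted p = 7.82e-05) and 0.46 in the 12 animals of cohort 2 alone, where it did not pass (adjusted p = 0.443). With SLC6A3, the dopamine transporter, in place of TH it was 0.55 (adjusted p = 2.4e-06). The slope of drinkers minus that of controls was -0.18 (SE 0.107, adjusted p = 0.988), so a difference between the groups was not detected. For that difference 6 of all transcripts passed, which is 0.0436%, and 0 of the 10 receptors.

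The transcripts most like NTSR1 across the 28 animals, of 10023 with a median of at least 20 counts, were DDC (r = 0.95), the enzyme that makes dopamine from L-DOPA, and SLC18A2 (r = 0.95), the transporter that loads dopamine into vesicles. TH itself had rank 3 in that order (r = 0.95). Of 17 dopamine neuron markers tested beside TH, 11 passed and rose with TH, against 0.596% of all transcripts passing. NR4A2, FOXA1, FOXA2, ALDH1A1, DRD2 and GCH1 did not pass. Among the 11, SLC6A3 rose by 1.02 per doubling (SE 0.059), DDC by 0.98 (SE 0.046) and SLC18A2 by 0.94 (SE 0.073). NTSR1, with a slope of 0.57, thus rose with TH by less per doubling than these 3, although a test of that difference was not run. The summed dopamine neuron markers ran from 1310 to 44907 normalised counts in controls and from 1269 to 41346 in drinkers, and none of the other 8 cell type lists with a member tested held a transcript that passed in this fit.

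**Figure D1:**
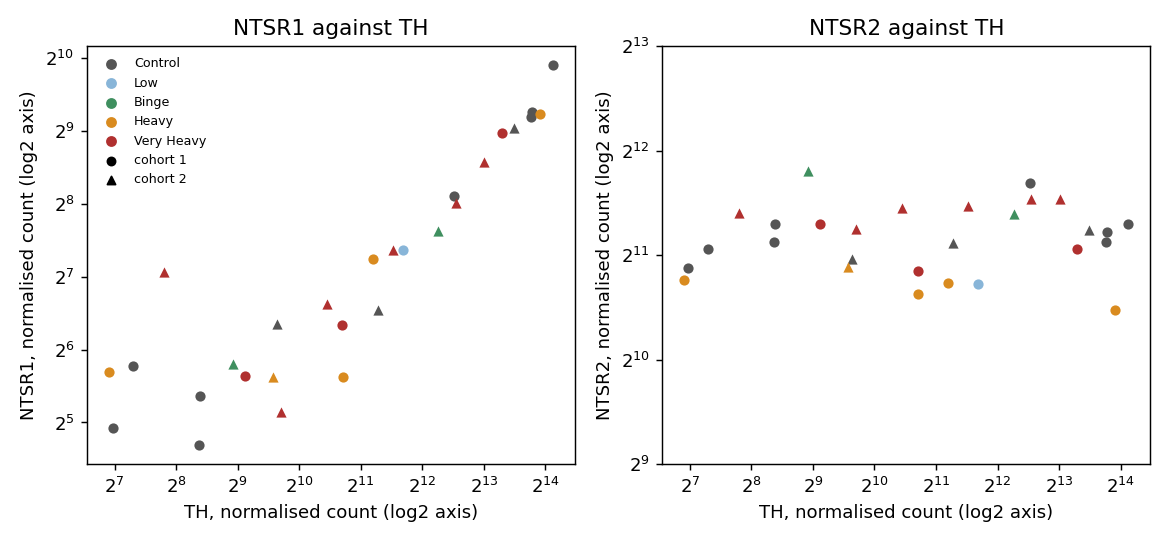
Normalised counts of NTSR1 (left) and NTSR2 (right) against normalised counts of TH, all on log2 axes, with 1 point per animal, colored by drinking category and shaped by cohort. For NTSR1 and TH r was 0.95 on variance-stabilized values and 0.90 on log2 CPM (n = 28). The rise is seen mainly at high TH, with 258 to 962 of NTSR1 in the 9 animals above 5000 of TH and 25.8 to 199 in the other 19. At lower TH it is uneven: heavy drinker 1 had 49.1 of NTSR1 at 1677 of TH, and heavy drinker 3 had 51.9 at 121. Very heavy drinker 5 had 134 of NTSR1 at 222 of TH. NTSR2 stays between 1423 and 3576 at every level of TH.

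The other 8 receptors with values in most animals did not pass in the fit on TH. TACR3 had the next-lowest p, with a slope of 0.11 (SE 0.050, unadjusted p = 0.0353, adjusted p = 0.631). Its r with TH was 0.47 over 28 animals (permutation p = 0.0115), 0.67 in cohort 1 and -0.10 in cohort 2. Without the 2 animals farthest from the median TH it was 0.36 over all animals (permutation p = 0.0729) and 0.60 in cohort 1 (permutation p = 0.0229). CCKBR had a slope of -0.12 (SE 0.065, adjusted p = 0.765), with an r of -0.40 over all animals (permutation p = 0.0339), -0.61 in cohort 1 and -0.13 in cohort 2. NTSR2 had a slope of 0.01 (SE 0.024) and an r of 0.06 (permutation p = 0.767). TACR1, HCRTR1, HCRTR2, GHSR and NPY1R had values of r between -0.09 and 0.27 over all animals, with permutation p-values from 0.173 to 0.77. With the single cohorts these were 45 relations, 9 receptors in 5 sets of animals that overlap, and their permutation p-values are unadjusted. The adjusted values are those of the fit across all transcripts. LEPR was left out of the correlations because it was at 0 in 23 animals.

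**Figure D2:**
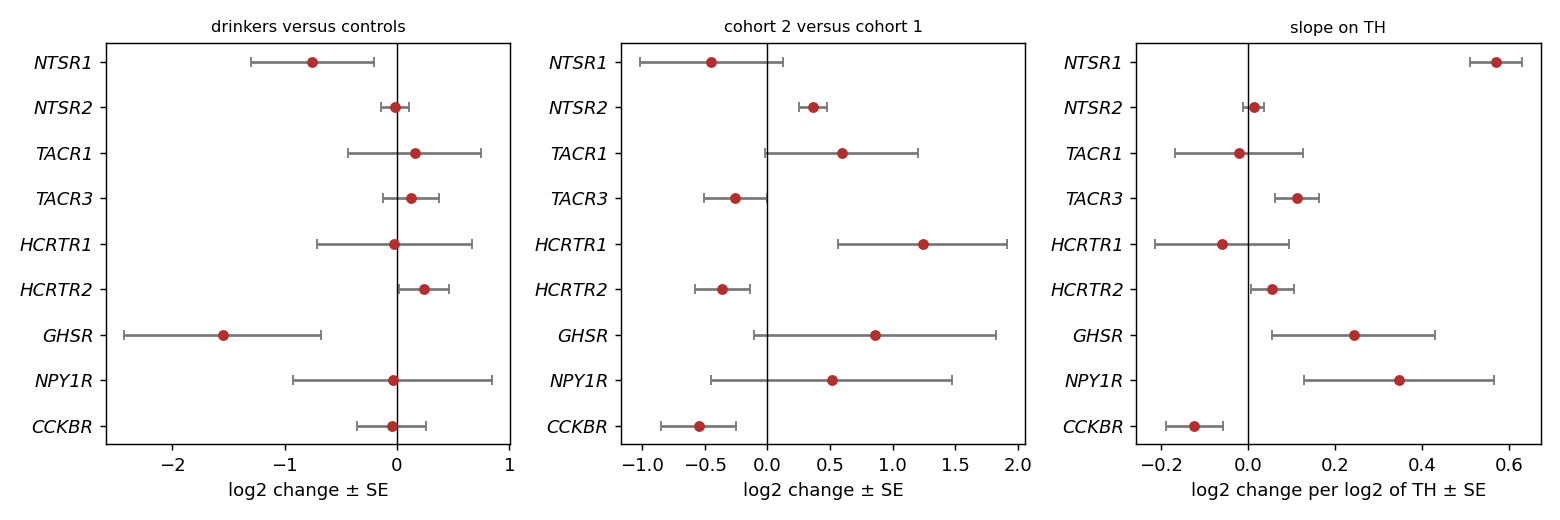
Log2 change of 9 receptors between drinkers and controls (left), between cohort 2 and cohort 1 (middle) and per doubling of TH (right), with points at the fitted value and bars of 1 SE on either side. NTSR1 stands at 0.57 per doubling of TH, while no receptor passed the adjusted threshold in the left and middle panels.

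NTSR2, the second neurotensin receptor, was the steadiest of the set, with a coefficient of variation of 22.7% over 28 animals against 107% for NTSR1, and its lowest values were in heavy drinkers. In controls its normalised counts ran from 1880 to 3293 with a median of 2234 (mean 2346 ± 374, SD, n = 11). The 5 heavy drinkers had 1578, 1423, 1733, 1699 and 1893 (1665 ± 176, SD). The 9 very heavy drinkers ran from 1847 to 2972 with a median of 2700 (2580 ± 387, SD), the 2 binge drinkers had 3576 and 2698, and the low drinker had 1690. Heavy drinkers lay below controls apart from heavy drinker 5, which was above the lowest control, and the same animal alone was above the lowest very heavy drinker. Ordered by their medians the categories rank low, heavy, control, very heavy and binge.

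The difference between heavy and very heavy drinkers was 0.63 on the log2 scale, higher in very heavy (SE 0.12, unadjusted p = 1.94e-05), the lowest p of all 13769 transcripts, but it did not pass adjustment (edgeR adjusted p = 0.267). Heavy drinkers stood 0.49 below controls on that scale (log2 change -0.49, SE 0.12, adjusted p = 0.554), and very heavy drinkers differed from controls by 0.14 (SE 0.095, adjusted p = 1). In these 3 fits edgeR called 0 of the 10 receptors and 0% of all transcripts each, with 936, 984 and 636 at an unadjusted p under 0.05. DESeq2's Wald test on the same counts called NTSR2 in both comparisons with heavy drinkers, with adjusted p-values of 6.37e-05 against very heavy drinkers and 0.0102 against controls, among 54 and 48 transcripts, or 0.397% and 0.352% of those tested. Thus the call on NTSR2 turned on the tool while the size of the difference (0.62 and -0.48 by DESeq2) did not.

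Because categories and cohorts overlap, NTSR2 is also given within cohort 1, as a description chosen after its low values in heavy drinkers had been seen and in part of the same animals. There the 4 heavy drinkers ran from 1423 to 1733 and the 3 very heavy drinkers from 1847 to 2522 without overlap, a log2 difference of 0.42. The 4 heavy drinkers also lay below all 8 controls of cohort 1, which ran from 1880 to 3293 (log2 difference -0.56). The log2 difference between the very heavy drinkers of cohort 1 and these controls was -0.14. Cohort 2 held 1 heavy drinker, at 1893, below its 6 very heavy drinkers at 2434 to 2972. With cohort as a term in the fit of all transcripts, the difference between very heavy and heavy drinkers was 0.57 (adjusted p = 0.451).

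NTSR2 in drinkers overlapped between cohorts but was lower on average in cohort 1, with 1423 to 2522 in cohort 1 (median 1716, n = 8) and 1893 to 3576 in cohort 2 (median 2804, n = 9). Controls of cohort 2 had 2212, 2415 and 1990, within the range of those of cohort 1. Across all animals with drinking as a term, cohort 2 was higher by 0.36 (SE 0.11, unadjusted p = 0.0036, adjusted p = 0.208), and among drinkers alone by 0.59 (adjusted p = 0.031), a fit in which 104 of all transcripts passed, or 0.755%. Drinkers minus controls was -0.39 in cohort 1 (SE 0.12, adjusted p = 0.0981) and 0.33 in cohort 2 (SE 0.16, adjusted p = 1), and the difference of these differences was 0.72 (SE 0.20, unadjusted p = 0.00129, adjusted p = 0.225). In the fits within cohorts 132 of all transcripts passed in cohort 1, which is 0.959%, 0% passed in cohort 2, and 2, or 0.0145%, passed for their difference. None of the 10 receptors passed in any of them, and in cohort 2 276 transcripts had an unadjusted p under 0.05.

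**Figure D3:**
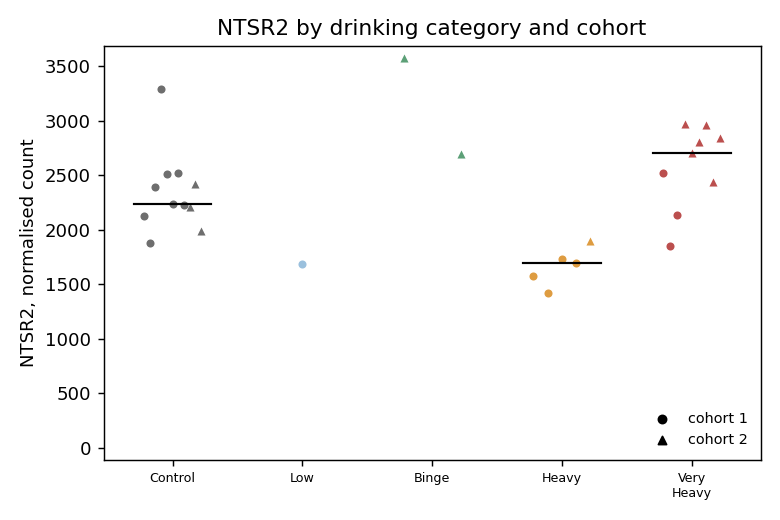
Normalised counts of NTSR2 in each drinking category, with 1 point per animal shaped by cohort and a line at the median of categories with more than 2 animals. Heavy drinkers sit between 1423 and 1893 and very heavy drinkers between 1847 and 2972, and the 1 heavy drinker of cohort 2 is the highest of its category.

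Astrocytes are a known site of NTSR2, so their markers are given beside it. Summed over 9 astrocyte markers, normalised counts ran from 20028 to 35749 in heavy drinkers and from 25049 to 34568 in very heavy drinkers, and the log2 difference of 0.05 was within the spread (exact permutation test, p = 0.709). Of the 9, 7 were tested and 0 passed between these categories, beside 0% of all transcripts. SLC1A2 was listed at 0 in all 28 animals, ALDH1L1 in 26 and AQP4 in 18, so the sum rests mostly on GJA1, S100B and SOX9. GFAP, which adds little to the sum, ran from 44.7 to 954 in heavy drinkers and from 8.37 to 160 in very heavy drinkers. Its log2 change was -1.51 in very heavy drinkers (SE 0.73, edgeR adjusted p = 0.724), opposite in direction to NTSR2. The median log2 change of the 7 tested markers was 0.15, in the direction of NTSR2, against 0.01 over all transcripts. The transcript most like NTSR2 over 28 animals was PRELP (r = 0.83), a proteoglycan of the extracellular matrix. Mitochondrial transcripts took 41.6% to 56.2% of counts in heavy drinkers and 42.5% to 58.2% in very heavy drinkers. The part of the sample's makeup in the NTSR2 difference was not tested further.

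Between all drinkers and controls, none of the 10 receptors passed (0 of 10, beside 0% of all transcripts, with 629 at an unadjusted p under 0.05 and 11, or 0.08%, called by DESeq2). No receptor had an unadjusted p under 0.05 either. The median log2 change of the 10 was -0.03, and that of all transcripts was 0.00147. NTSR1 had a log2 change of -0.75 (SE 0.55) and NTSR2 of -0.01 (SE 0.13), each with an adjusted p of 1.00. The change of NTSR1 was -0.36 with limma-voom, -0.26 without the 3 animals at 0 for TACR1 and -0.12 with cohort and TH as covariates. Between cohorts 6 of all transcripts passed, which is 0.0436%, and 0 of the receptors, with a median log2 change of 0.44 for the receptors and 0.02 for all transcripts. The receptors went both ways, with NTSR1, TACR3, HCRTR2 and CCKBR lower in cohort 2 and the others higher. This median includes LEPR, for which no fold change is given.

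**Figure D4:**
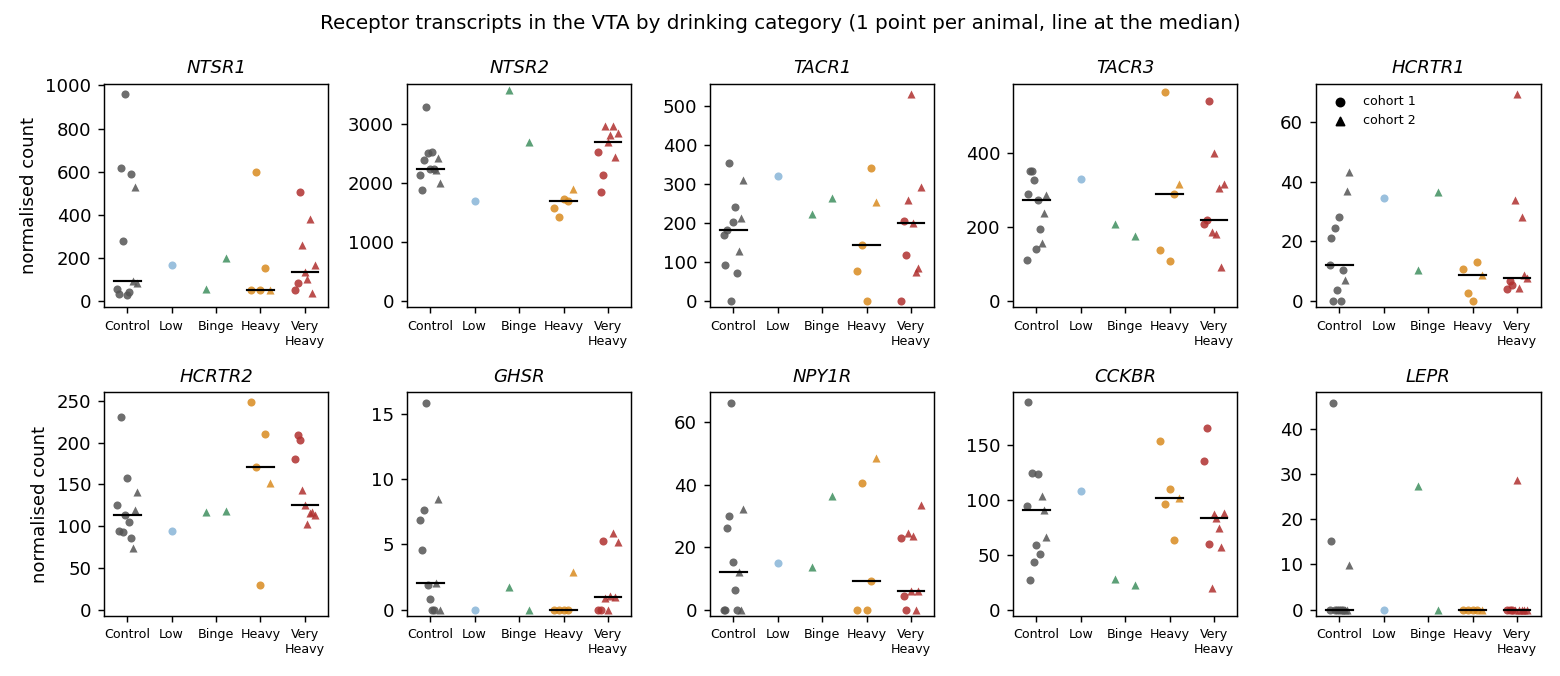
Normalised counts of the 10 receptors in each drinking category, with 1 point per animal, circles for cohort 1, triangles for cohort 2 and a line at the median of categories with more than 2 animals. Drinkers and controls overlap for every receptor, and the NTSR2 points of heavy drinkers sit lowest beside the low drinker, while GHSR and LEPR are at 0 in many animals.

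Among tachykinin receptors, TACR3 (chromosome 5 from 101996866 to 102101565), the neurokinin B receptor, ran from 112 to 352 normalised counts in controls (median 273, mean 248 ± 85.5, SD, n = 11) and from 91.2 to 565 in drinkers (median 220, 270 ± 136, SD, n = 17). The 2 animals above all others, heavy drinker 2 at 565 and very heavy drinker 3 at 541, were both of cohort 1. The log2 change in drinkers was 0.12 (SE 0.25). The most similar transcripts were ZCCHC12 (r = 0.80) and PAFAH1B3 (r = 0.73).

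TACR1 (chromosome 13 from 33609958 to 33757383), the substance P receptor, ran from 0 to 353 in controls (median 182) and from 0 to 530 in drinkers (median 205), with a log2 change of 0.16 (SE 0.59). It was listed at 0 in control 5, heavy drinker 3 and very heavy drinker 1, all of cohort 1, while the other 25 animals had at least 72.4 normalised counts. Its most similar transcripts were INO80D (r = 0.72) and IL27RA (r = 0.70). Without these 3 animals the r of TACR1 with TH was -0.23 (permutation p = 0.275, n = 25).

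The orexin receptors differed in how much they varied. HCRTR2 (chromosome 4 from 114267557 to 114383444) ran from 73.9 to 231 in controls (median 114, mean 122 ± 43.7, SD, n = 11) and from 29.4 to 249 in drinkers (median 126, 144 ± 54.1, SD, n = 17), a log2 change of 0.24 (SE 0.22). Drinkers of cohort 1 held both the lowest value, 29.4 in heavy drinker 3, and the highest, 249 in heavy drinker 1, while the 9 drinkers of cohort 2 lay between 102 and 151. The cohort difference was -0.36 (SE 0.22, adjusted p = 0.645). HCRTR1 (chromosome 1 from 193040196 to 193052162) was sparse, with 0 to 43.1 normalised counts in controls (median 12.0) and 0 to 69.4 in drinkers (median 8.83). It was at 0 in 2 controls and 1 drinker, and its highest value was in very heavy drinker 5. Its log2 change was -0.02 in drinkers (SE 0.69) and 1.24 in cohort 2 against cohort 1 (SE 0.67, adjusted p = 0.569). For HCRTR2 the most similar transcripts were NOL10 and PRKAA1 (r = 0.72 for both), and for HCRTR1 CHRM3 (r = 0.64) and ALKBH2 (r = 0.60).

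Receptors for signals of hunger and energy stores were listed at 0 in 8 to 23 of the 28 animals. GHSR (chromosome 2 from 77354538 to 77361766), the ghrelin receptor, was at 0 in 3 of 11 controls and in 9 of 17 drinkers. It reached 15.9 normalised counts in controls (median 2.03) and 5.87 in drinkers (median 0), a log2 change of -1.55 (SE 0.87, unadjusted p = 0.0864, adjusted p = 1.00). In cohort 1 it was at 0 in 7 of 8 drinkers, with 5.26 in very heavy drinker 3, and at 0 in 2 of 8 controls (log2 change -2.63, SE 1.22, unadjusted p = 0.0402, adjusted p = 0.305), and in cohort 2 the log2 change was -0.73 (SE 1.46, adjusted p = 1) and turned to 0.96 without control 10. These values rest on 71 counts over all 28 animals, with 5 or more counts in 3 controls and 3 drinkers. NPY1R (chromosome 5 from 160940164 to 160960968) was at 0 in 4 controls and 4 drinkers and reached 66.3 in controls (median 12.2) and 48.4 in drinkers (median 13.7), with a log2 change of -0.04 (SE 0.88). Its slope on TH was 0.35 (SE 0.22, adjusted p = 0.901), and it was 0.098 with limma-voom and -0.19 in cohort 2 alone. The transcripts most similar to GHSR were ZNF808 (r = 0.66) and ELOVL6 (r = 0.63), and those most similar to NPY1R were PEX7 (r = 0.66) and JAKMIP3 (r = 0.65), which at counts this sparse is a description only.

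LEPR (chromosome 1 from 158798340 to 158896008), the leptin receptor, was listed at 0 in 8 of 11 controls and 15 of 17 drinkers. Its nonzero values were 45.8, 15.1 and 9.87 normalised counts in controls 3, 2 and 11, 28.7 in very heavy drinker 5 and 27.4 in binge drinker 1. With 131 counts in 5 animals, no fold change is given, and the value is that of 1 transcript of a gene for which RefSeq annotates 5. CCKBR (chromosome 14 from 59672824 to 59685797), the brain cholecystokinin receptor, was measured in every animal, from 27.1 to 189 in controls (median 90.5, mean 88.3 ± 46.3, SD, n = 11) and from 20.01 to 165 in drinkers (median 87.3, 85.4 ± 42.2, SD, n = 17). The 2 binge drinkers, at 28.2 and 22.6, and very heavy drinker 4, at 20.01, were the lowest drinkers, and all 3 were of cohort 2. Its log2 change was -0.05 in drinkers (SE 0.31) and -0.55 in cohort 2 (SE 0.30, adjusted p = 0.571). SYT3 was among its most similar transcripts (r = 0.69).

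The peptides that act on these receptors were measured in the same libraries, although several of them are made largely outside the VTA. Of 11 ligand genes 10 were in the table and 8 were tested, and 0 passed between drinkers and controls, between cohorts or in the fit on TH, beside 0%, 0.0436% and 0.596% of all transcripts. NTS, the neurotensin precursor, ran from 19.4 to 138 normalised counts in controls (median 39.8) and from 18.6 to 168 in drinkers (median 63.7), with a log2 change of 0.47 (SE 0.37, adjusted p = 1.00). Its slope on TH was -0.16 (SE 0.084, adjusted p = 0.754), where that of its receptor NTSR1 was 0.57. NPY had 159 ± 149 normalised counts in controls (SD, n = 11) and 343 ± 243 in drinkers (SD, n = 17), a log2 change of 1.10 (SE 0.40, unadjusted p = 0.00994, edgeR adjusted p = 0.760). Values of NPY overlapped, from 39.3 to 531 in controls and from 113 to 1089 in drinkers.

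TAC1, which encodes substance P, had a log2 change of -0.41 in drinkers (SE 0.25, adjusted p = 1.00), and CCK one of -0.01 (SE 0.50). The orexin precursor HCRT was at 0 in 4 of 11 controls and 13 of 17 drinkers and never exceeded 10.8 normalised counts. Its counts reached 12 in controls and 3 in drinkers, so it passed the filter through controls alone, and no fold change is given. GHRL was at 0 in 21 animals, TAC3 in 12, PYY in 7, GAST in 26 and LEP in all 28. Counts of GHRL reached 2 in controls and 12 in drinkers, so it passed the filter through drinkers alone. HCRT and GHRL are counted among the tested ligands. No fold changes are given for GHRL, TAC3, PYY and GAST.

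Of 8 further receptors or binding partners of the same peptides, 6 were in the table and tested. CCKAR (chromosome 5 from 25444936 to 25454427), the other cholecystokinin receptor, was the 1 of 6 that passed in the fit on TH, beside 0.596% of all transcripts, with a slope of 0.34 (SE 0.051, adjusted p = 0.000281). Its normalised counts ran from 56.4 to 507 in controls (median 139) and from 51.9 to 428 in drinkers (median 132), and its log2 change in drinkers was -0.25 (SE 0.35). CCKAR rose with TH where CCKBR, at -0.12 per doubling, did not pass, and the difference between them was not tested. The slope of SORT1, the sorting receptor that also binds neurotensin, was -0.02 (SE 0.024), that of SORL1 was 0.12 (SE 0.22), that of TACR2 was 0.11 (SE 0.053, adjusted p = 0.688), that of NPY2R was -0.01 (SE 0.19) and that of NPY5R was -0.04 (SE 0.072). NPY5R had a log2 change of 0.66 in drinkers (SE 0.35, adjusted p = 1.00), SORT1 of 0.02 (SE 0.11), TACR2 of -0.08 (SE 0.26), NPY2R of 0.01 (SE 0.84) and SORL1, which was at 0 in 8 animals, of 0.07 (SE 0.92).

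In the wider lists, 0 of 23 other feeding hormone receptors, 0 of 21 other neuropeptide receptors and 0 of 11 leptin signaling genes tested passed between drinkers and controls, between cohorts or in the fit on TH. Of all transcripts 0%, 0.0436% and 0.596% passed in these 3 fits, so 0 in lists of this size is near the share of all transcripts. Of 20 genes of Gq and calcium signaling, the route by which NTSR1 acts, 2 passed in the fit on TH, beside 0.596% of all transcripts, and in opposite directions. TRPC6, a cation channel opened by diacylglycerol, had a slope of 0.34 (SE 0.078, adjusted p = 0.0384), and ITPR2, a calcium release channel, had a slope of -1.72 (SE 0.41, adjusted p = 0.0457). The median slope of that list was 0.000652, against 0.000483 over all transcripts.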

How the data were processed

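RNA from VTA tissue had been made into libraries with an mRNA kit (Nugen Universal Plus mRNA). Per the labels, the authors trimmed reads with Trim Galore 0.6.7 and quantified them with Salmon 1.9.0 against Mmul_10, and the deposited table holds estimated counts that are not normalized, for 16886 entries with 1 Ensembl transcript per gene symbol. A gene's value therefore lacks the reads that went to its other transcripts. The 1 entry without a symbol held 1.16e-05% of counts and was left out. All 28 columns were matched to animals by name, cohort was taken from the study's source data, and no 2 libraries had identical counts for more than 23.2% of transcripts.

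Counts were rounded, a minimum of 5 counts in 3 or more animals was required, and tests used edgeR 4.0.16 (TMM, quasi-likelihood, Benjamini-Hochberg at 0.05) in R 4.3.3. The SE is the log2 change divided by the square root of F. TH entered as log2 CPM with a prior count of 2, beside drinking and cohort. Categories were fitted as 5 group means, and comparisons within cohorts as means of drinkers and controls in each. Correlations used variance-stabilized counts from DESeq2 1.42.0 and 100000 permutations in numpy 2.4.6. The scripts were tested on simulated counts. The promoter windows came from the RefSeq annotation of Mmul_10. Alternatives were DESeq2, limma 3.58.1, other size factors, no filter, further covariates, single cohorts and leaving out animals.

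The receptors, gene lists and tests were chosen with earlier results of these data known. Named were all 10 receptors, TH, the ligands and related receptors, list members past the threshold, and for each receptor the 2 transcripts most like it, of which some are not reported here. Very heavy drinker 5 and the astrocyte markers at 0 were singled out after their values were seen.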

Additional observations from a re-analysis of the deposited data

Results flagged for a closer look

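In groups of 5 to 9 animals, 96 checks of the highest or lowest value against Dixon's 95% critical value, by the gap to the nearest animal as a share of the group's range, marked 11 values, and chance marks about 1 in 20 groups. The highest heavy drinker in NTSR1, heavy drinker 2 with 600 normalised counts against 151 for the next, had a gap of 0.81 of the range, and this animal also had the most TH of any drinker, 15397. Control 4 stood highest in NTSR2 among the controls of cohort 1, with 3293 against 2524 (0.54). Very heavy drinker 5 stood highest in TACR1 among drinkers of cohort 2, with 530 against 292 (0.52), in HCRTR1 among very heavy drinkers, with 69.4 against 33.7 (0.55), in HCRTR1 among drinkers of cohort 2, against 36.4 (0.51), and in LEPR among very heavy drinkers, with 28.7 where the others were at 0 (1). The low drinker stood highest in HCRTR1 among drinkers of cohort 1, with 34.5 against 13.0 (0.62). In GHSR the nonzero value of heavy drinker 5 (2.91) among heavy drinkers and that of very heavy drinker 3 (5.26) among drinkers of cohort 1 were set against 0 in all others (1 each), and both rest on a few counts. Control 5 stood highest in NPY1R among controls of cohort 1, with 66.3 against 29.9 (0.55), and control 3 in LEPR, with 45.8 against 15.1 (0.67).

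No receptor's change in drinkers differed between cohorts, and no slope on TH differed between drinkers and controls, at an adjusted p under 0.05.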

How the results depend on the processing

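Of the 102 alternative values for counts of calls, 81 stayed within 1.5 times the main count. The number of all transcripts called moved with DESeq2 to 11 for drinkers against controls, 121 for cohorts, 22 and 48 for very heavy and heavy drinkers against controls and 54 between them. For cohorts it moved to 23 with limma-voom, 3 with DESeq2 size factors, 13 with TH as a covariate, 104 in drinkers only and 2 without the 3 animals at 0 for TACR1, and for the slope on TH to 43 with limma-voom, 17 in cohort 2 alone and 43 without those 3 animals. For the difference between cohorts it moved to 0 with TH as a covariate and ran from 0 to 4 when single controls of cohort 2 were left out. The number of receptors called moved to 1, NTSR2, with DESeq2 between heavy drinkers and controls and between very heavy and heavy drinkers, and among drinkers only for cohorts, and to 0 for the slope on TH in cohort 2 alone. The cause of these moves was not tested. Fits in part of the series also held fewer animals.

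NTSR1 kept a positive slope on TH in all 8 alternatives and passed in all but cohort 2 alone, and its r over all animals, drinkers or controls stayed between 0.81 and 0.97. Differences of NTSR2 kept their sign under the alternatives for categories and cohorts, and DESeq2 and the restriction to drinkers brought it past the threshold. Of 417 alternative values for single receptors 38 changed sign, and of the values that did only the r and the slope of TACR3 on TH had an unadjusted p under 0.05. For drinkers against controls these were HCRTR1 at 0.24 and NPY1R at 0.28 with limma-voom, TACR1 at -0.024 and CCKBR at 0.023 with cohort as a covariate, TACR1 at -0.012 and CCKBR at 0.033 with cohort and TH, and NTSR2 at 0.013, HCRTR1 at 0.027 and NPY1R at 0.50 without the 3 animals at 0 for TACR1. Within cohort 2, NTSR1 became 0.17 with TH as a covariate, and without single controls it ran from -1.01 to 0.80 and GHSR from -1.29 to 0.96, both positive only without control 10. The difference of cohorts for NTSR1 ran from -0.38 without control 11 to 1.44 without control 10 (-0.34 without control 9), and very heavy minus heavy for NTSR1 from -0.18 without heavy drinker 1 or 5 (-0.16 without 3) to 1.32 without heavy drinker 2. For the slope on TH, HCRTR1 became 0.032 with limma-voom, TACR1 0.081 in cohort 1 alone, and TACR3 -0.063, HCRTR2 -0.018 and NPY1R -0.19 in cohort 2 alone.

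Correlations with TH that changed sign without the 2 animals farthest from the median were those of NTSR2 in drinkers (0.16), of TACR1 (0.096), HCRTR1 (0.065) and NPY1R (-0.023) in all animals, and of HCRTR1 (0.18), HCRTR2 (-0.41) and NPY1R (-0.13) in controls. TACR1 in all animals became 0.062 on log2 CPM and 0.029 in cohort 1 alone, HCRTR2 in controls -0.036 by Spearman's rho, and with SLC6A3 in place of TH HCRTR1 became 0.059 in all animals and NPY1R -0.015 in drinkers. In cohort 2 alone TACR3 became -0.10, HCRTR1 0.16, HCRTR2 -0.12 and NPY1R -0.39. No paired analysis was possible because replicate numbers only name the animals here and the labels do not tell which drinker a control was yoked to. Counts were fewest for GHSR, LEPR, HCRTR1 and NPY1R, whose totals over all 28 animals were 71, 131, 462 and 500 counts, and intervals here cover the spread between animals only. The comparison of NTSR2 within cohort 1, the correlations without very heavy drinker 5 and the fits without the animals at 0 for TACR1 were added after seeing the data.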
